A study of Mus musculus with 94 samples.

Results

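A set of 9 genes of G protein and cyclic AMP signalling, 5 regulators of G protein signalling (Rgs1, Rgs2, Rgs10, Rgs18 and Rgs19) and 4 subunits of protein kinase A (Prkacb, Prkaca, Prkar1a and Prkar2b), was followed cell by cell among the 13244 genes of a single-cell expression table from mouse haematopoietic stem cells. The genes were taken by name, and they were chosen by values of these same cells, since Rgs1 and Prkacb were already known to be higher in the Ski-KO cells. Their differences between genotypes are therefore a description, with no test. The study, titled as work on early stage myelodysplastic syndrome, sorted bone marrow cells of the C57BL/6 strain 6 months after transplantation of stem cells that came from fetal liver. The gate kept c-Kit+ and Sca-1+ cells that were Cd150+ and Cd45.2+, and it left out Cd48+ cells and cells with lineage markers. Single cells, 46 of the Ski-KO and 48 of the Ski-WT genotype, were captured on a Fluidigm C1 chip. The labels do not give the Ski allele, the number of donors or recipients, or their ages.

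The cells carry 3 label prefixes, 051716 for 27 Ski-KO cells, 051816 for 19 Ski-KO cells and 061016 for all 48 Ski-WT cells, and the labels do not say what a prefix stands for. Since no prefix is shared between genotypes, a difference of genotype and a difference of prefix cannot be told apart. Each genotype counts as 1 sample, and the agreement of the Ski-KO prefixes with each other is the only repeat within a genotype. Values are in TPM, transcript abundances scaled to gene length and to each cell's total, which keep no sequencing depth. Cells had between 2326 and 5214 genes above 0, with medians of 3248 in prefix 051716, 3679 in prefix 051816 and 3670.5 in the Ski-WT cells. Ski itself was low in every prefix, with a mean log2(TPM + 1) of 0.56 in 051716, 0.48 in 051816 and 0.67 in the Ski-WT cells, and a value per gene cannot show whether part of the gene is missing, so the labels could not be checked with it. Among the genes of the gate, Cd48 was at 5 TPM or more in no cell. At that limit Slamf1, the gene of Cd150, was found in 2 of 27, 2 of 19 and 7 of 48 cells. Ly6a, the gene of Sca-1, was found in 20, 7 and 29 cells, Kit in 23, 15 and 41 and Ptprc, the gene of Cd45, in 16, 11 and 34. Of the markers of other marrow cells, the summed level of 10 granulocyte and monocyte genes had medians of 594 TPM in 051716, 256 TPM in 051816 and 519 TPM in the Ski-WT cells, with Elane, Mpo, Ctsg, Csf1r and Ly6c2 at 0 throughout. Within this list Lyz2 had means of 602, 432 and 356 TPM and Prtn3 of 156, 97.7 and 294 TPM. The T and NK cell sum had medians of 21.2, 1.48 and 25.7 TPM, with a highest cell of 3934 TPM. In this list Nkg7 had means of 532, 266 and 360 TPM and Lck of 6.83, 0 and 56.5 TPM. Cd3d, Cd8a and Cd8b1 had means of 0.374 TPM or lower, and Cd4 and Klrb1c were at 0 throughout. Macrophage, mast cell, erythroid, endothelial and B cell sums had medians of 0 in every prefix. The highest cells were at 2614 TPM (B cell, in 051816) and 1792 TPM (endothelial, in the Ski-WT cells). The B cell sum in 051816 came from Cd79b alone, with Cd79a and Vpreb1 at 0 there. The sum of 10 stem cell genes had medians of 859, 1150 and 1923 TPM. The summed level of 12 megakaryocyte and platelet genes had medians of 48.7 TPM in 051716, 117 TPM in 051816 and 97 TPM in the Ski-WT cells, but reached 3526, 6023 and 8336 TPM in the highest cells, with Clec1b at 0 throughout.

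Receptors that couple to G proteins load the G alpha subunit with GTP, and RGS proteins end the signal by speeding the hydrolysis of that GTP. In haematopoietic stem cells the best known such receptor is CXCR4, which holds the cells in the marrow through its ligand CXCL12. G alpha subunits also raise or lower the activity of adenylyl cyclase, which makes cyclic AMP. Cyclic AMP binds the regulatory subunits of protein kinase A, and the catalytic subunits are then free to phosphorylate targets such as the transcription factor CREB.

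Rgs18 and Rgs1 supplied most of the RGS transcripts. In the Ski-WT cells the order of the mean levels was Rgs18 (912 TPM), Rgs1 (311 TPM), Prkar1a (224 TPM), Rgs19 (88.3 TPM), Prkacb (75.6 TPM), Prkar2b (56.9 TPM), Rgs2 (46.04 TPM), Prkaca (32.9 TPM) and Rgs10 (14.8 TPM). All neighbours in this order differed by less than the SD between cells of the higher gene. The SDs ran from 56.1 TPM for Rgs10 to 899 TPM for Rgs18. Without its highest cell Prkar2b (33.1 TPM) lay below Rgs2 (35.2 TPM without its own highest cell). In 051716 the mean of Rgs1 (1258 TPM) was above that of Rgs18 (933 TPM), and in 051816 it was below (755 against 891 TPM). The median of Rgs1 was below that of Rgs18 over all Ski-KO cells (260 against 673 TPM). Prkar2b, with a mean of 7.17 TPM over the Ski-KO cells, was near the bottom. Of the genes tested, 97.5% had a lower Ski-WT mean than Rgs18, 91.8% a lower mean than Rgs1 and 88.2% a lower mean than Prkar1a. The genes tested are the 6240 with a value above 0 in no fewer than 25% of Ski-KO or of Ski-WT cells, and 8 of the 9 genes described here are among them, Rgs10 being the exception.

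**Figure D1:**
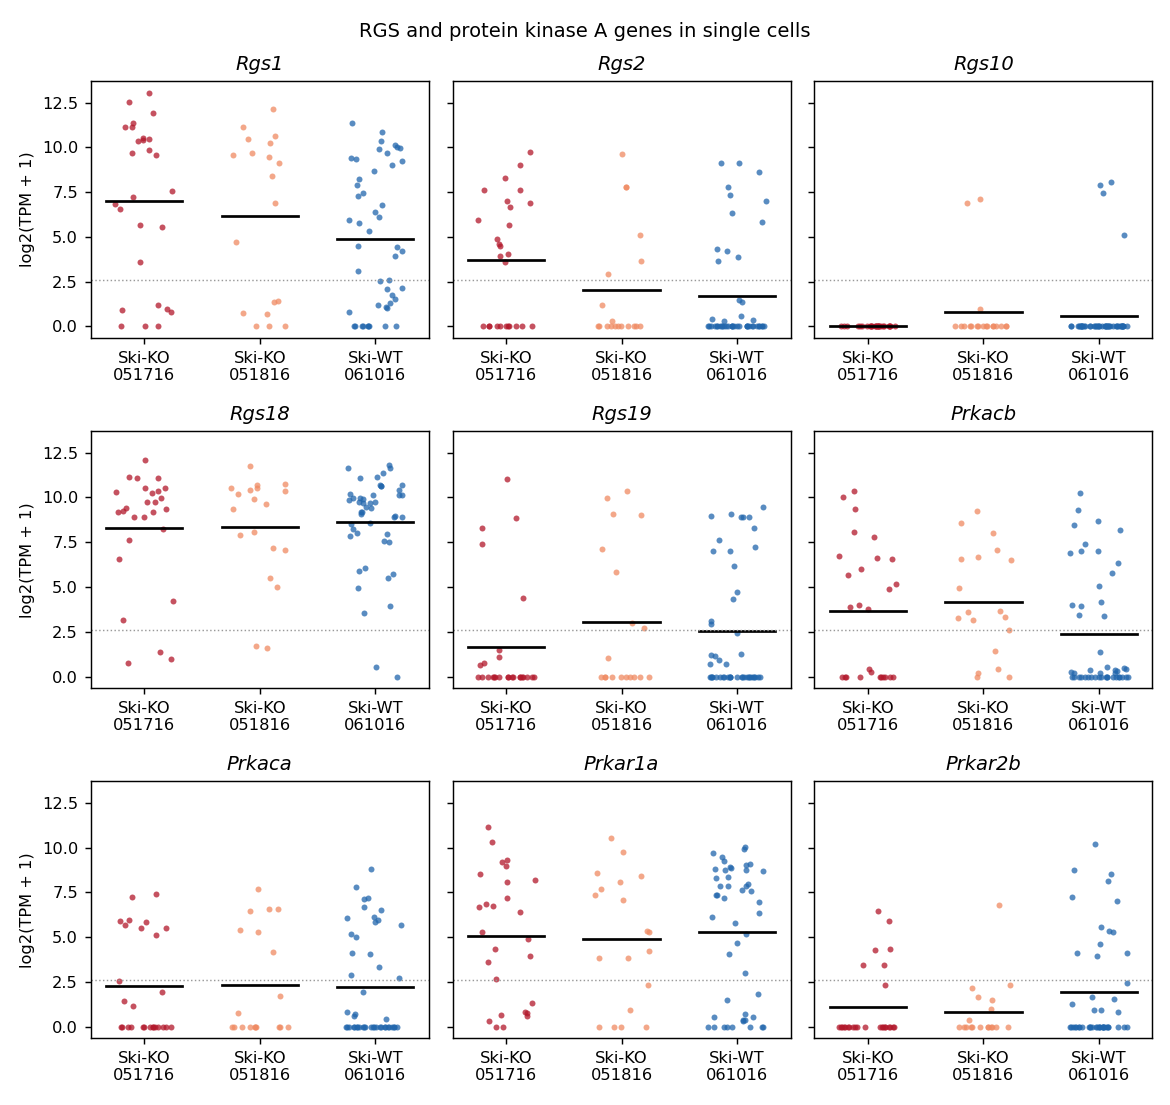
Level of each of the 9 genes as log2(TPM + 1) (vertical axis) in every cell, by genotype and label prefix (horizontal axis); each point is a cell, the black line is the mean and the dotted line marks 5 TPM. Rgs18 was above the line in all but 7 cells of 94. Rgs1 and Prkacb had cells at 0, at low and middle levels and at high levels in each prefix.

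Rgs1, which dampens signalling by chemokine receptors in lymphocytes, had the highest SD of log2(TPM + 1) over all cells of the 9 genes in each prefix. In prefix 051716 it ran from 0 through a median of 185 TPM to 8468 TPM, and 20 of 27 cells had 5 TPM or more (74.1%, exact 95% interval 53.7% to 88.9%). In prefix 051816 it ran from 0 through 335 TPM to 4545 TPM, with 12 of 19 cells at 5 TPM or more (63.2%, interval 38.4% to 83.7%). In the Ski-WT cells it ran from 0 through 21.3 TPM to 2649 TPM, with 28 of 48 cells at 5 TPM or more (58.3%, interval 43.2% to 72.4%). The ranges overlapped and so did the intervals of the shares, which cover counting error only. The level within the cells at 5 TPM or more was further apart, with medians of 1101 TPM in 051716, 783 TPM in 051816 and 270 TPM in the Ski-WT cells. The mean over all Ski-KO cells was 3.38 times the Ski-WT mean, with 4.04 times in 051716 and 2.43 times in 051816. On the log2(TPM + 1) scale the Ski-KO mean was higher by 1.78, with 2.13 and 1.28 in the prefixes.

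A few cells carried much of the Rgs1 transcript. The 3 highest cells held 53.8% of the summed Rgs1 TPM in 051716, 58.6% in 051816 and 38.7% in the Ski-WT cells. Without the highest cell of each prefix the means were 980, 544 and 261 TPM, in the same order as before. The SD of log2(TPM + 1) between cells was 4.48, 4.63 and 3.88, and in the Ski-WT cells 92.3% of the genes tested had a lower SD than Rgs1. Over cells at 5 TPM or more the SD was 2.60, 1.99 and 2.38, so that 051816 went from the widest prefix to the narrowest.

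Rgs18, a family member known for its high level in megakaryocytes and platelets, was the most evenly detected of the 9 genes. It was at 5 TPM or more in 24 of 27 cells of prefix 051716 (88.9%), 17 of 19 cells of 051816 (89.5%) and 46 of 48 Ski-WT cells (95.8%). Its median was 667 TPM in 051716, 794 TPM in 051816 and 693 TPM in the Ski-WT cells, with highest cells at 4435, 3439 and 3591 TPM. The mean levels lay within 1.004-fold of each other between genotypes, 916 TPM in Ski-KO and 912 TPM in Ski-WT cells. On the log2(TPM + 1) scale the Ski-KO mean was lower by a difference of -0.33 (-0.34 in 051716 and -0.31 in 051816), and the sign turned, to 0.16, when only cells at 5 TPM or more were compared. The megakaryocyte and platelet sum had a Spearman rho with Rgs18 of -0.26 in 051716, 0.02 in 051816 and 0.36 in the Ski-WT cells, and the part of such cells in the Rgs18 level was not tested.

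The balance between Rgs1 and Rgs18 differed between the prefixes. Rgs1 made up 52.4% of the mean summed RGS level in 051716, 39.4% in 051816 and 22.7% in the Ski-WT cells, whereas Rgs18 made up 38.9%, 46.5% and 66.5%. Rgs1 was above Rgs18 in 12 of 27 cells of 051716, 6 of 19 cells of 051816 and 9 of 48 Ski-WT cells. The summed level of the 5 RGS genes had medians of 1437 TPM, 1714 TPM and 1175 TPM. No cell had all 5 RGS genes at 5 TPM or more, and the median number was 3 in 051716, 2 in 051816 and 2 in the Ski-WT cells.

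Rgs2, which acts mainly on G alpha q and is induced by many stimuli, differed between the Ski-KO prefixes. In 051716 it ran from 0 through a median of 15.3 TPM to 870 TPM, with 16 of 27 cells at 5 TPM or more (59.3%, interval 38.8% to 77.6%). In 051816 its median was 0 and its highest cell 802 TPM, with 6 of 19 cells at 5 TPM or more (31.6%, interval 12.6% to 56.6%). In the Ski-WT cells its median was 0 and its highest cell 557 TPM, with 12 of 48 cells at 5 TPM or more (25%, interval 13.6% to 39.6%). Against Ski-WT the difference was 2.0 in 051716 and 0.32 in 051816, and the median level in cells at 5 TPM or more was 80.3, 126 and 103 TPM, so the detected cells of 051716 were more numerous and not higher. The mean in 051816, 68.2 TPM, fell to 27.4 TPM without its highest cell.

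Rgs19, whose protein binds the G alpha i subunits, also went different ways in the Ski-KO prefixes. It was at 5 TPM or more in 5 of 27 cells of 051716 (18.5%), 8 of 19 cells of 051816 (42.1%) and 16 of 48 Ski-WT cells (33.3%), with highest cells at 2088, 1289 and 707 TPM. Its difference from Ski-WT was -0.90 in 051716 and 0.54 in 051816. The mean of 113 TPM in 051716 rested on its highest cell and was 36.8 TPM without it. Pooled, the log2 difference was -0.30, while the ratio of mean TPM went the other way (0.70 in log2).

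Rgs10, a small family member that consists of little more than the RGS domain, was rare. It was above 0 in no cell of 051716. Counting error alone allows up to 11.1% of cells with a value above 0 there, taken as 3 cells of the total (exact interval up to 12.8%), which limits detected cells and not cells that express the gene. In 051816, 2 of 19 cells had 5 TPM or more, at 137 and 119 TPM. Among the Ski-WT cells 4 of 48 had 5 TPM or more, from 33.1 to 267 TPM. The difference of -0.27 (-0.59 and 0.20 in the prefixes) rests on these 6 cells and 1 cell of 051816 under 5 TPM.

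Rgs1, Rgs2 and Rgs18 lie together on chromosome 1. In the RefSeq annotation of GRCm38 the protein-coding order there is Rgs2, Rgs13, Rgs1, Rgs21 and Rgs18, and Rgs13 and Rgs21 were not among the genes analysed here. Rgs2 and Rgs1 had rho values across cells of 0.20 in 051716, -0.02 in 051816 and 0.05 in the Ski-WT cells. Rgs2 and Rgs18 had 0.15, 0.08 and -0.09. Rgs1 and Rgs18 had 0.54, 0.17 and 0.14. The pairs were furthest apart in 051716, and no interval was computed for these rho values.

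**Figure D2:**
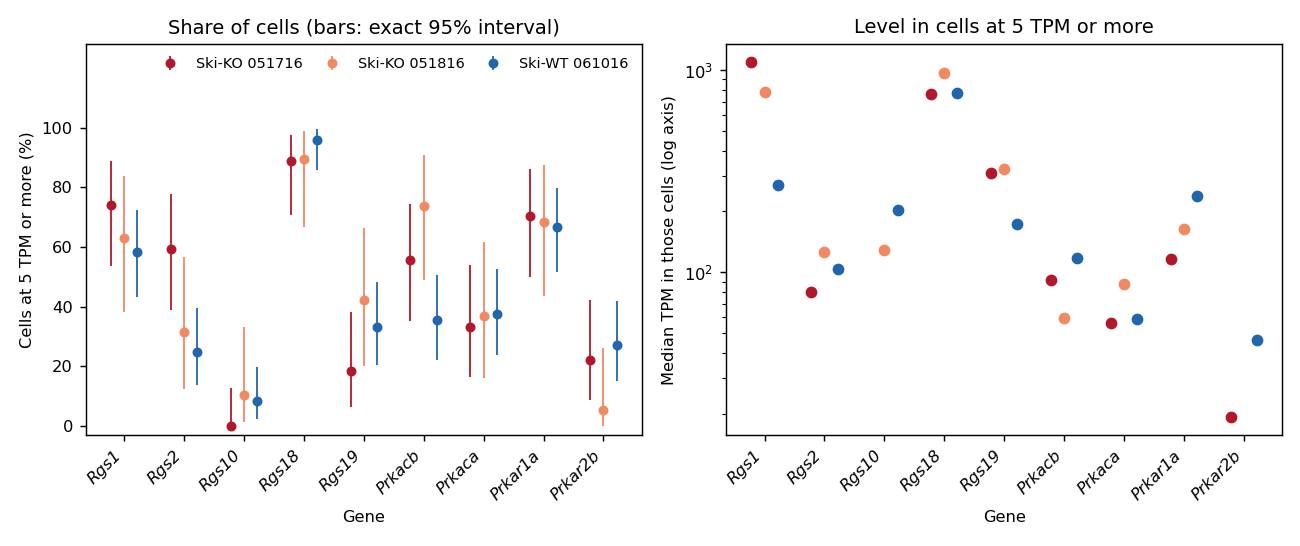
Left, share of cells at 5 TPM or more (vertical axis, percent) for each gene (horizontal axis), with exact 95% intervals as bars, by prefix; right, median level in those cells (vertical axis, TPM, log scale), shown where at least 2 cells of the prefix qualify. Prkacb was separated more by its share of cells (55.6%, 73.7% and 35.4%) and Rgs1 more by its level in those cells (1101, 783 and 270 TPM).

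Prkacb, which encodes the catalytic beta subunit of protein kinase A, was at 5 TPM or more in a larger share of the Ski-KO cells, by an amount that depended on the limit. In prefix 051716 it ran from 0 through a median of 13.8 TPM to 1315 TPM, with 15 of 27 cells at 5 TPM or more (55.6%, interval 35.3% to 74.5%). In prefix 051816 it ran from 0 through 11.2 TPM to 598 TPM, with 14 of 19 cells (73.7%, interval 48.8% to 90.9%). In the Ski-WT cells it ran from 0 through 0.235 TPM to 1194 TPM, with 17 of 48 cells (35.4%, interval 22.2% to 50.5%). The ranges overlapped, and the interval of the Ski-WT share overlapped that of each Ski-KO prefix. The shares above 0 were closer for 051716, with 63.0% in 051716, 89.5% in 051816 and 58.3% in the Ski-WT cells, and those at 20 TPM or more were 44.4%, 42.1% and 25%. Among the cells at 5 TPM or more the order was the other way, with medians of 92.1 TPM in 051716, 59.4 TPM in 051816 and 118 TPM in the Ski-WT cells. The difference over all cells was 1.51 on the log2(TPM + 1) scale, with 1.31 and 1.80 in the prefixes, and it was -0.35 when only cells at 5 TPM or more were compared. The mean levels, 125 TPM in Ski-KO and 75.6 TPM in Ski-WT cells, differed 1.65-fold, with 1.96-fold in 051716 and 1.21-fold in 051816.

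Prkaca, the catalytic alpha subunit gene, was detected at similar shares and levels in the 3 prefixes. It was at 5 TPM or more in 9 of 27 cells of 051716 (33.3%), 7 of 19 cells of 051816 (36.8%) and 18 of 48 Ski-WT cells (37.5%). Means were 25.1, 30.8 and 32.9 TPM, highest cells 171, 209 and 448 TPM, and the difference from Ski-WT was 0.07 in 051716 and 0.15 in 051816. Its sign depended on the scale, with -0.25 for the log2 ratio of mean TPM. Prkaca and Prkacb are close paralogues, and the table cannot show how reads that fit both were divided between them.

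More cells had only 1 catalytic gene at 5 TPM or more than had both. Both were at 5 TPM or more in 4 of 27 cells of 051716, 5 of 19 cells of 051816 and 6 of 48 Ski-WT cells. Prkacb alone was found in 11, 9 and 11 cells, Prkaca alone in 5, 2 and 12 cells, and neither in 7, 3 and 19 cells. At least 1 catalytic gene was thus detected in 74.1% of the cells of 051716 (interval 53.7% to 88.9%), 84.2% of 051816 (interval 60.4% to 96.6%) and 60.4% of the Ski-WT cells (interval 45.3% to 74.2%). Prkacb made up 85.5%, 74.8% and 69.7% of the mean summed catalytic level. Prkaca was at 5 TPM or more in 26.7%, 35.7% and 35.3% of the cells with Prkacb at that limit. In the cells with Prkacb under it these shares were 41.7%, 40% and 38.7%, so they were close in 051816 and the Ski-WT cells. The rho between Prkacb and Prkaca was -0.10, -0.29 and -0.12, and Pearson's r in the Ski-WT cells was 0.0058.

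CREB binds the cyclic AMP response element, TGACGTCA, or its shorter core TGACG. The stretches from 250 bases before to 50 bases after an annotated start were searched on both strands for these letters, with the RefSeq table of GRCm38.p6. The core lies within the full element, so each full element also counts for the core. The submitters' notes name mm9, so these coordinates serve to place the sequences and are not joined to the expression table. Of 32851 such promoters, 20.8% held the core and 1.79% the full element. The table held 18 promoters for 7 of the 9 genes. It held none for Rgs1 or Rgs18, so their promoters were not searched. The core was present in 6 of these promoters, from 4 genes, and the full element in 2 overlapping promoters of Prkar1a. Prkacb and Prkaca are shown because their transcripts differed in pattern while 1 promoter of each held the core. Rgs2 is shown because, of the RGS genes searched (Rgs2, Rgs10 and Rgs19), it alone held the core. Capitals mark the core on either strand.
Prkacb, chr3:146812897-146813196, minus strand: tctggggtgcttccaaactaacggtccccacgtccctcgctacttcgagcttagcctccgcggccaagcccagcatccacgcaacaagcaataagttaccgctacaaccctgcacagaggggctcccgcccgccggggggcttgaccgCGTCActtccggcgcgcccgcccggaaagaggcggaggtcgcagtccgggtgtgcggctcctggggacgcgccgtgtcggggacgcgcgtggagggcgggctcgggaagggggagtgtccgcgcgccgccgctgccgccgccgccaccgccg
Prkaca, chr8:83972728-83973027, plus strand: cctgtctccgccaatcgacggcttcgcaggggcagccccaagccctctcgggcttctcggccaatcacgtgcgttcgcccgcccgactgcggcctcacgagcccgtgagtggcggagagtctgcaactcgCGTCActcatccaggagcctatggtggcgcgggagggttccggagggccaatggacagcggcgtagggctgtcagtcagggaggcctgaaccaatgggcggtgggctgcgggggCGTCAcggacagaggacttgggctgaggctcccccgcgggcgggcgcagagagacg
Rgs2, chr1:144004100-144004399, minus strand: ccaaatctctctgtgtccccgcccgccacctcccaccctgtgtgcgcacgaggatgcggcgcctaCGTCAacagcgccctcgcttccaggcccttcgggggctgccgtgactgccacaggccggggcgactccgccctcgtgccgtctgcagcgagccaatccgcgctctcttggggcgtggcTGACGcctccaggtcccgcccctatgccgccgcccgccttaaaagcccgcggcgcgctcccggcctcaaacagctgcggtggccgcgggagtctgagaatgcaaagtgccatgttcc
The Prkacb stretch has 1 core, at position -102 from the start. The Prkaca stretch has 2, at -120 and -6, and the Rgs2 stretch 2, at -185 and -67. A match of letters is not a binding site, and the table does not tell which start the cells used.

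Prkar1a, the regulatory subunit gene with the highest level, was detected in most cells. It was at 5 TPM or more in 19 of 27 cells of 051716 (70.4%), 13 of 19 cells of 051816 (68.4%) and 32 of 48 Ski-WT cells (66.7%). Medians were 38.1, 37.7 and 136 TPM and highest cells 2307, 1474 and 1057 TPM, so the typical cell was lower and the highest cells were higher in the Ski-KO prefixes. The means, 256, 208 and 224 TPM, were close together for this reason. The log2 difference was -0.26 (-0.19 and -0.36 in the prefixes), and it was 0.08 for the ratio of mean TPM.

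Prkar2b, which encodes the type II beta regulatory subunit, had its highest cells among the Ski-WT cells. It was at 5 TPM or more in 6 of 27 cells of 051716 (22.2%, interval 8.62% to 42.3%), with the highest at 85.8 TPM. In 051816 it reached that level in 1 of 19 cells (5.26%, interval 0.133% to 26.03%), at 110 TPM. With a limit of 1 TPM the shares were 25.9% in 051716, 31.6% in 051816 and 35.4% in the Ski-WT cells, so the order of the Ski-KO prefixes turned with the limit. Of the Ski-WT cells, 13 of 48 had 5 TPM or more (27.1%, interval 15.3% to 41.8%), with the highest at 1175 TPM and the next at 422 TPM. Mean levels were 7.67, 6.47 and 56.9 TPM, and the Ski-WT mean was 7.93 times that of the Ski-KO cells. Without the highest cell of each prefix the means were 4.66, 0.713 and 33.1 TPM. The log2 difference was -0.93, with -0.81 in 051716 and -1.09 in 051816, and it kept its direction under all 11 alternative settings.

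Within single cells, the catalytic sum (Prkacb and Prkaca) was compared with the regulatory sum (Prkar1a and Prkar2b). The catalytic sum was the higher in 13 of 27 cells of 051716, 11 of 19 cells of 051816 and 14 of 48 Ski-WT cells. The ratio of the mean sums was 0.66, 0.57 and 0.39. Medians of the catalytic sum were 58.6, 91.4 and 20.4 TPM, and medians of the regulatory sum were 85.3, 37.9 and 174 TPM. In 2, 1 and 4 cells none of the 4 genes reached 5 TPM.

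The 9 genes were then set beside all genes tested. A gene was counted where its mean log2(TPM + 1) differed from Ski-WT by 1 or more in the same direction in both Ski-KO prefixes. By this rule 0.577% of the genes tested were higher and 5.56% lower. Rgs1 and Prkacb were among the higher genes and none of the 9 was among the lower ones. With a pseudocount of 5 TPM, or with the log2 ratio of mean TPM, Prkacb no longer met the rule, and with a pseudocount of 0.1 TPM or that ratio Prkar2b did. Since these differences chose the genes, nothing is read from the counts. In 051716 alone Rgs1, Rgs2 and Prkacb were higher by 1 or more, beside 3.93% of the genes tested, and none was lower, beside 17% (1058 genes). In 051816 alone Rgs1 and Prkacb were higher, beside 6.36%, and Prkar2b was lower, beside 13% (814 genes). The comparisons share the Ski-WT cells. Among the genes tested, 99.92% had a lower pooled difference than Rgs1, 99.63% than Prkacb and 99.36% than Rgs2, whereas 13.9% had a lower one than Prkar2b. The median over the 9 genes was -0.26, with 4 higher and 5 lower, and that over the genes tested was -0.22, with 2170 higher and 4070 lower.

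**Figure D3:**
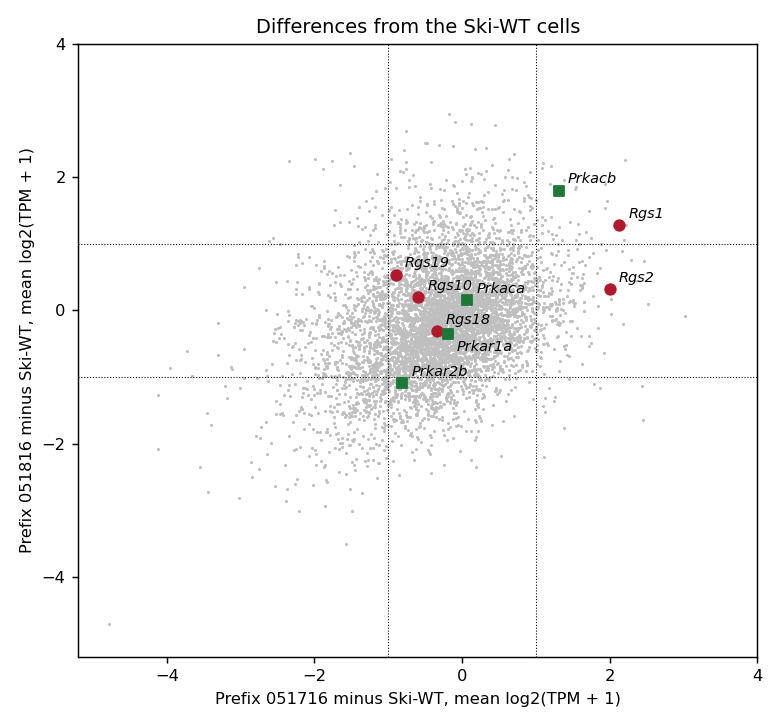
Mean log2(TPM + 1) of each gene minus its Ski-WT mean, for prefix 051716 (horizontal axis) and prefix 051816 (vertical axis); grey points are the 6240 genes tested, red circles the RGS genes, green squares the protein kinase A genes, and dotted lines mark a difference of 1. Rgs1 (2.13 and 1.28) and Prkacb (1.31 and 1.80) lie past the lines in both prefixes, and Rgs2 (2.0 and 0.32) in 1 of them.

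Co-expression was described with Spearman's rho across the cells of a prefix, where both values of a point share that cell's own library and depth. Of 36 pairs, 28 had a rho in all 3 prefixes, since Rgs10 was at 0 throughout 051716. Among these, 5 were positive and 4 negative in all 3 prefixes. The same shares over all pairs of genes tested were not computed, so nothing is read from these counts. The medians over the 28 pairs were 0.02, -0.05 and 0.07, beside medians over all pairs of genes tested of 0.02 in each prefix. Only the pair of Rgs1 and Prkacb reached 0.2 in every prefix, a limit chosen after the values were seen, and 0.611% of all pairs of genes tested did so.

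Rgs1 and Prkacb had rho values of 0.46 in 051716 (27 cells), 0.31 in 051816 (19 cells) and 0.21 in the Ski-WT cells (48 cells). Both were at 5 TPM or more in 13, 9 and 11 cells. Among cells of 051716 with Rgs1 at 5 TPM or more 65% also had Prkacb, against 28.6% of the other cells. In 051816 these shares were 75% and 71.4%, and in the Ski-WT cells 39.3% and 30%. The Ski-WT rho was 0.08 with values under 5 TPM set to 0, and Pearson's r there was 0.11.

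**Figure D4:**
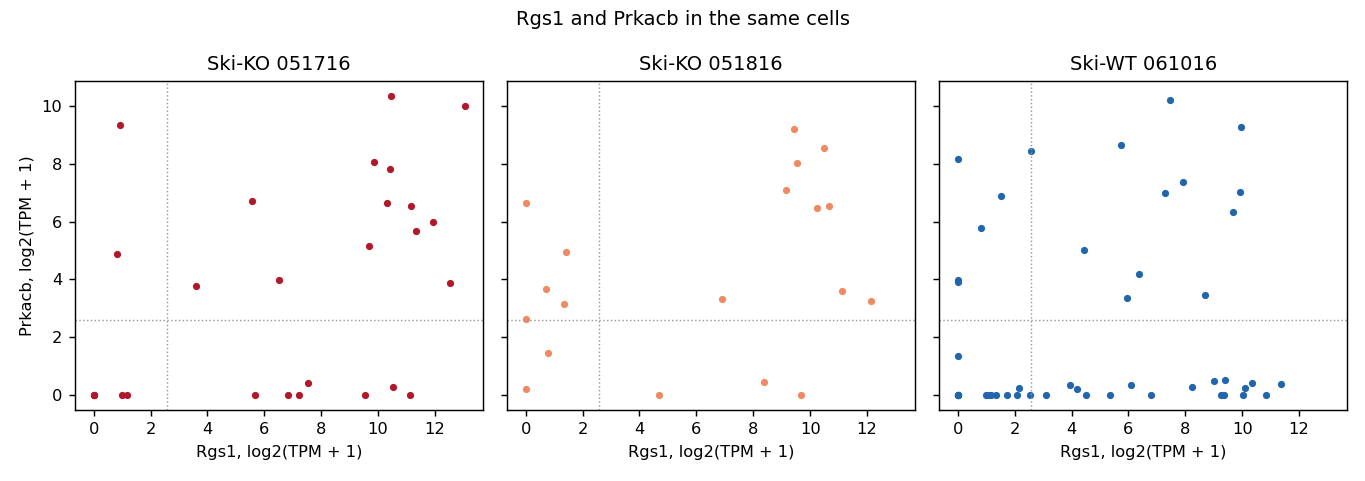
Prkacb (vertical axis) against Rgs1 (horizontal axis), both as log2(TPM + 1), in the cells of each prefix; each point is a cell and dotted lines mark 5 TPM. Cells high in both were 13 of 27 in 051716, 9 of 19 in 051816 and 11 of 48 among the Ski-WT cells, and cells high in only 1 gene occur in every prefix.

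Rgs1 and Rgs18 were the pair with the highest single value, 0.54 in 051716, with 0.17 in 051816 and 0.14 in the Ski-WT cells. All 20 cells of 051716 with Rgs1 at 5 TPM or more also had Rgs18, as did 11 of 12 cells of 051816 and 28 of 28 Ski-WT cells. Of the cells with Rgs1 under 5 TPM, 57.1%, 85.7% and 90% had Rgs18 at 5 TPM or more. Rgs18 and Prkacb had 0.17, 0.34 and 0.11. The lowest value was -0.38, between Rgs18 and Rgs19 in 051816, where the pair had -0.07 in 051716 and 0.10 in the Ski-WT cells. Most pairs with a rho in every prefix had no common direction, and the share among all pairs of genes tested was not computed.

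**Figure D5:**
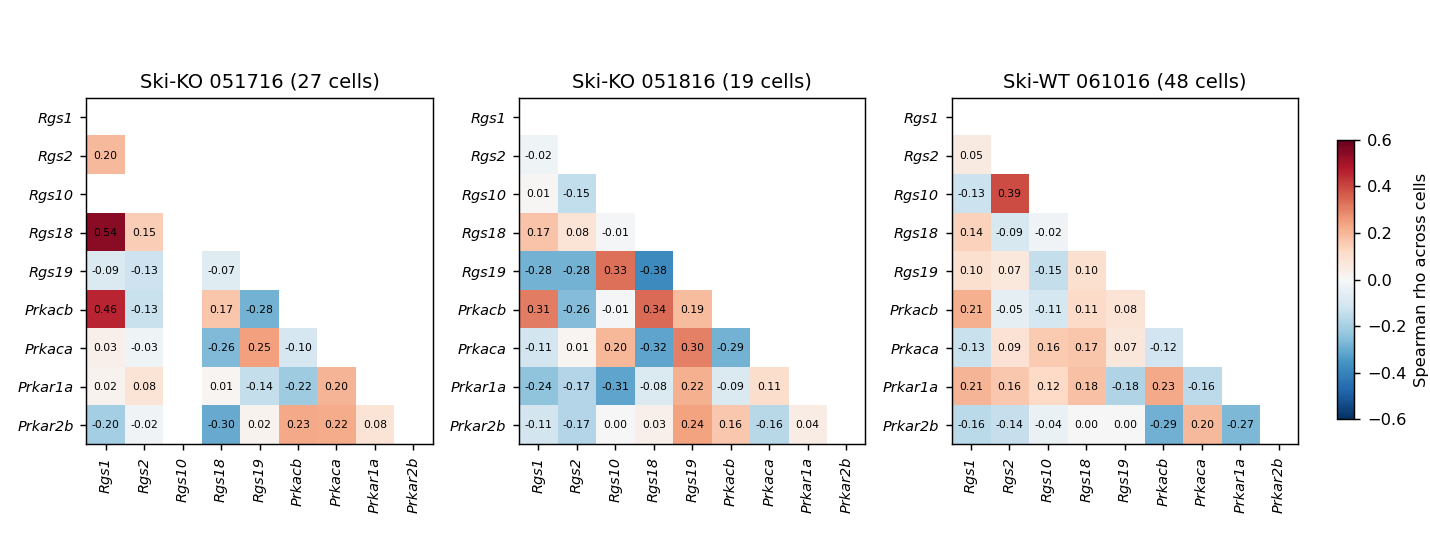
Spearman rho of log2(TPM + 1) between each pair of the 9 genes (rows and columns), 1 panel per prefix, with the scale from -0.6 (blue) to 0.6 (red); pairs with Rgs10 are blank in 051716. Values run from -0.38 to 0.54, and Rgs1 with Prkacb is the only pair at 0.2 or more in all panels.

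Rgs1 and Rgs2 were also compared with the immediate early genes, which stimulation and cell handling induce, because their sum was higher in the prefix where Rgs2 was high. The median summed level of 21 immediate early genes was 4523 TPM in 051716, 2517 TPM in 051816 and 2730 TPM in the Ski-WT cells. The rho of this sum with Rgs1 was 0.51, 0.32 and -0.01, and with Rgs2 it was 0.09, 0.21 and 0.15. With the sum of 12 CREB target genes, Rgs1 had 0.46, 0.44 and -0.07, and Prkacb had 0.00, -0.09 and 0.16. The CREB and immediate early lists share genes such as Fos. The part of an immediate early response in the Rgs1 level was not tested. The number of genes above 0 per cell had a rho with Rgs1 of -0.06, -0.02 and 0.31.

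The other genes of these pathways were taken from lists, and Gnb1 alone among them passed the rule. Gnb1 encodes a G protein beta subunit and differed by -4.75 (-4.78 and -4.71). It was at 5 TPM or more in 16 of 27, 13 of 19 and 48 of 48 cells, with means of 289, 321 and 1599 TPM. Rgs1 had a rho with Gnb1 of 0.03, 0.02 and -0.13, and Rgs18 of 0.11, 0.16 and 0.49. Over all genes tested 0.577% were higher and 5.56% lower by the rule, so little can be read from counts in lists this short. Gnb1 was the only gene past the rule among 7 tested G beta and gamma genes, and none of 7 G alpha genes passed it (Gna13 had 1.54 in 051716 and 0.11 in 051816). None of 10 tested G protein-coupled receptor genes passed it either, with Lpar6, a lysophosphatidic acid receptor gene, at -1.29 (-0.86 and -1.89). Of 16 other RGS genes listed 4 were in the table, and none of these passed the filter on low values.

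On the cyclic AMP side the tested genes were few. They were Adcy7 among the adenylyl cyclases (-0.32), 4 phosphodiesterase genes led by Pde4a (0.44), 4 anchoring protein genes led by Akap8 (-0.77), and Pkig (-0.51), which encodes an inhibitor of the catalytic subunit. The 6 CREB factor genes were led by the coactivator gene Crtc2 (1.52 in 051716 and 0.06 in 051816). The 7 CREB target genes were led by Fos (2.18 and -0.21). The 3 genes of the Epac and Rap branch were led by Rap1b (0.95 and 0.04). None of these genes passed the rule, beside 0.577% of all genes tested that were higher and 5.56% that were lower. The list medians were 0.05 for phosphodiesterases, -0.42 for anchoring proteins, -0.04 for CREB factors and 0.33 for CREB targets, beside -0.22 over all genes tested.

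The genes most like each of the 9 were sought over the 48 Ski-WT cells. The search covered 3171 genes at 5 TPM or more in at least 25% of the 94 cells. Rgs10 and Prkar2b were below that limit. Each gene was picked for its high Ski-WT rho among so many, so that rho is high by selection. The rho in the Ski-KO prefixes is given beside it, but those cells differ in genotype and prefix and are not a repeat. Rgs1 was most like Atraid, with 0.53, but had -0.11 with it in 051716 and -0.03 in 051816. Rgs18 was most like Ctnnb1 (0.54), which encodes beta-catenin, with -0.21 and -0.13 in the Ski-KO prefixes. Prkacb was most like Sf3b2 (0.61), a splicing factor gene, with -0.13 and 0.03. Prkar1a was most like Adam10 (0.54), a membrane protease gene, with 0.04 and -0.25. Rgs2 was most like Nme4 (0.52), with 0.02 and 0.12, and Prkaca was most like Ebna1bp2 (0.47), with -0.08 and -0.18. Rgs19 was most like Ywhag (0.43), with 0.11 and 0.21.

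The next genes by the same rule were Gstz1 (0.51) and Ufsp2 (0.49) for Rgs1, Gnb1 (0.49) and Eif3f (0.46) for Rgs18, and Cmtm7 (0.42) and Acap1 (0.41) for Rgs19. For Rgs2 they were Blvrb (0.50) and Ifnar1 (0.49). For Prkacb they were Atp6v1g1 (0.56) and 2900097C17Rik (0.52), for Prkaca Diablo (0.46) and Foxn3 (0.45), and for Prkar1a Anapc5 (0.51) and Rpp38 (0.51). In the Ski-KO prefixes their values ranged widely, from -0.65 for Prkar1a with Rpp38 in 051816 to 0.42 for Rgs19 with Acap1 in 051816.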

How the data were processed

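The labels describe SMARTer cDNA and Nextera XT libraries of single cells. The submitters' processing notes name Bowtie2, RSEM and the mouse build mm9, and their roles and versions are not given in the sources used here. The authors deposited log2(TPM + 1) for each gene and cell. This unit was inferred from the numbers, since TPM recovered from them summed to between 997625 and 999995 in each cell. Each cell took its genotype from its title and its prefix from its description, and no cell was left out. No doublet caller was run.

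Means, SDs and Spearman and Pearson correlations were computed on the deposited log2 scale, and levels and shares of cells in TPM. Shares have exact Clopper-Pearson intervals at 95%. A share of 0 was given the limit of 3 cells of the total. No p-value was computed, because each genotype is 1 sample and cells are not replicates. The genes and lists were chosen with earlier results of these data known. All 9 genes are named. In each list the genes past a difference of 1 in both Ski-KO prefixes are named, and otherwise the tested gene with the largest absolute difference. For likeness the 3 genes with the highest Ski-WT rho of each gene are named. Alternatives covered the pseudocount, linear means, detection limits, rescaling, quantile normalization, a covariate for genes above 0, weighting and filters. The scripts were tested on simulated data. Tables were made in Python 3.11.15 with pandas 2.3.3, scipy 1.17.1 and numpy 2.4.6, and plots with matplotlib 3.10.9.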

Additional observations from a re-analysis of the deposited data

How the results depend on the processing

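Rgs1 was higher in the Ski-KO cells under all 11 alternatives (1.60 to 2.15), and Prkar2b was lower under all 11 (-2.82 to -0.67). The pooled Rgs10 difference stayed negative under all 11 (-1.26 to -0.05), but it was -0.59 in prefix 051716 and 0.20 in 051816. Rgs10 did not pass the filter on low values, and its pooled sign rests on very few detected cells. The alternatives reuse those cells, so they cannot show that Rgs10 was lower. Prkacb kept its direction in 10 of 11 and was -0.35 in cells at 5 TPM or more, an alternative added after the data were seen, as were leaving out the highest cells, taking off the median of all genes and using single prefixes. The count of the 9 genes that were higher fell from 2 to 1 with a pseudocount of 5 TPM and to 1 when the log2 ratio of mean TPM was used, in both cases because Prkacb was lost. The count of lower genes was 1 instead of 0 with a pseudocount of 0.1 TPM, 1 for the log2 ratio of mean TPM, and again 1 in prefix 051816 alone, and that gene was Prkar2b each time. The median over the 9 genes was 0.077 for the log2 ratio of mean TPM, 0.075 with the number of genes above 0 as a covariate and 0.20 in prefix 051816 alone, instead of -0.26. The share of all genes tested that were higher ran from 0.144% (pseudocount of 5 TPM) to 4.65% (log2 ratio of mean TPM), and that of lower genes from 2.18% (pseudocount of 5 TPM) to 11.5% (pseudocount of 0.1 TPM). The median of all genes tested moved between -0.35 (pseudocount of 0.1 TPM) and -0.05 (log2 ratio of mean TPM). Over cells at 5 TPM or more the SD of log2 values differed by more than the chosen margin in 23 of 24 cases. Leaving out the cells under that limit narrows the spread by itself, so this count was largely fixed in advance. No paired analysis was possible because the result comes from no test and each genotype is 1 sample. TPM keeps no depth, so a value of 0 cannot be told from a transcript that was missed.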

Other observations

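Prkar2b had a positive rho across cells with the summed level of 17 cell cycle genes in each prefix. The values were 0.65 in 051716, 0.39 in 051816 and 0.20 in the Ski-WT cells. They rest on few detected cells, since Prkar2b was above 0 in 7 of 27, 7 of 19 and 20 of 48 cells and tied at 0 in the others. Its rho with the number of genes above 0 was 0.41, 0.29 and 0.05, and the part of that number in the relation was not tested. Rgs1 had -0.39, -0.27 and 0.26 with the same cell cycle sum. Rgs2 had -0.50 with Ly6a, the gene of the sort marker Sca-1, in the Ski-WT cells, against 0.00 in 051716 and -0.18 in 051816. These relations were picked after their values were seen, from 9 measures per gene, and carry no test.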
